A study of Mus musculus with 30 samples.

Results

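The constitutive proteasome subunits were followed in mouse liver. Members were the genes whose platform annotation symbol is Psma, Psmb, Psmc, Psmd or Psme followed by a number, without the interferon-inducible Psmb8, Psmb9 and Psmb10. The array carried 38 such genes on 54 probes. Of these, 35 genes had a probe with a detection p under 0.05 on at least 7 of the 30 arrays and were tested, among 9084 genes tested in all. They comprise 12 of 15 genes of the core particle, 19 of 19 of the regulatory particle and 4 of 4 activators. The 3 genes below the detection limit were Psma5, Psma6 and Psmb11, which were detected on 0 arrays. Psmb11 encodes the catalytic subunit of the proteasome of the thymic cortex. Further probes for Psma1 and Psma3 were also detected on 0 arrays, while the probes used for these genes were detected on all 30. Detection on 0 arrays therefore does not show that a transcript is absent. The rule for members uses symbols and detection and no measured difference between the groups. It was set with earlier results of these data known.

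The livers came from C57BL/6J mice, 14 raised germfree and 16 raised conventionally. All 30 mice, both groups alike, received a high-fat diet for 11 weeks and were killed after 10 h without food. Each array held the biotin-labelled cRNA of 1 liver. A comparison of the groups asks how the level of each transcript in the liver differs between mice without and with a gut microbiota on this diet, and there was no group on another diet or in the fed state. The label of liver was checked on 7 hepatocyte markers, of which the 4 that were tested (including Apoa1 and Ttr, both secreted by hepatocytes) were detected on every array. The other markers, Alb, Fgb and Tat, were not among the genes tested. The mean deposited signal of an array was between 85.5 and 359, with 3 arrays under 160, of which 1 was conventional and 2 were germfree. Between 33.7% and 41.7% of probes were detected on an array. The number of arrays limits the precision of every value below. In whole liver, fewer cells of a type and less RNA per cell cannot be told apart.

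The proteasome degrades proteins that carry ubiquitin chains. Its barrel-shaped core particle is built of rings of alpha subunits, which gate the entrance, and rings of beta subunits, of which Psmb5, Psmb6 and Psmb7 cleave the substrate. The regulatory particle caps the barrel, with a base of ATPases (Psmc) that unfold the substrate and a set of non-ATPase subunits (Psmd) that bind and remove ubiquitin. Activators (Psme) can cap the barrel in its place and open the gate without ATP. In mammals the transcription factor Nrf1, the product of Nfe2l1, raises the transcription of the subunits together when proteasome capacity falls short, through antioxidant response elements in their promoters.

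Promoters were read because the subunits are known to be transcribed together. RefSeq promoter windows (GRCm38.p6, 250 bases before to 50 after the start site) were matched for 29 of the 35 tested members, and not for Psmb1, Psmb2, Psmb7, Psmc3, Psmd3 and Psmd7. The antioxidant response element core, searched as TGACNNNGC on both strands, was present in the windows of 6 of 29 members (20.7%) and in 14% of the windows of 27025 genes. The 6 were Psmb5, Psmb6, Psmc6, Psmd9, Psmd12 and Psme4. Psmb5 and Psmb6 are printed because they are catalytic subunits that hold it, with the match in capitals. Psmc1 is printed because its values fell in separated levels (below), with a match to CCGGAAG, the core bound by ETS factors, in capitals on the opposite strand.
Psmb5 promoter, chr14:54617946-54618245, minus strand: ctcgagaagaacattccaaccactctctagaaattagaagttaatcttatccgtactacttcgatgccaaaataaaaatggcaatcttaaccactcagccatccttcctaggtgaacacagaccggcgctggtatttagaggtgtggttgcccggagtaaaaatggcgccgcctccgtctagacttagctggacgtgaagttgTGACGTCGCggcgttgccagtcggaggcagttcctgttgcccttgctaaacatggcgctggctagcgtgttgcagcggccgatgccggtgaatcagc
Psmb6 promoter, chr11:70525107-70525406, plus strand: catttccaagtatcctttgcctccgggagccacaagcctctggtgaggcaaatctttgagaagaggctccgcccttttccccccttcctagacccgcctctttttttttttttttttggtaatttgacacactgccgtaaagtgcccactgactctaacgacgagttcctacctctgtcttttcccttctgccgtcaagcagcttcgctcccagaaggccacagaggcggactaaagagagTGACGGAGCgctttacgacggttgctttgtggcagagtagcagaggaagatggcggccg
Psmc1 promoter, chr12:100109952-100110251, plus strand: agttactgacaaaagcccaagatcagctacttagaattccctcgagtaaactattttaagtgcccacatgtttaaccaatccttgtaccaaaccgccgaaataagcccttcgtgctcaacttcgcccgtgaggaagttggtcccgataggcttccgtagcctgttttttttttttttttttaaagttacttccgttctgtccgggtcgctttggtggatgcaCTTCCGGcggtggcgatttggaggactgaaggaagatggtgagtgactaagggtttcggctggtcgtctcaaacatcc
The match began 47 bases before the start site in Psmb5 and 9 bases before it in Psmb6, and that of Psmc1 began 28 bases before it. CCGGAAG differed most between the parts of the proteasome. It was found in 0 of 9 core windows, 9 of 16 regulatory windows and 2 of 4 activator windows, against 9.93% of all windows. Its holders in the regulatory particle were Psmc1, Psmc2, Psmc6, Psmd2, Psmd4, Psmd6, Psmd11, Psmd12 and Psmd13. CCAAT was in 11 of 29 member windows (37.9%) and in 41.1% of all, CACGTG in 3 (10.3%) and 8.09%, and TATAAA in 2 (6.9%) and 15.7%. None of the 5 motifs contains another whole, though their ends can overlap. A match in these windows is a string of letters, not a bound site, and no test of the shares was made.

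None of the 35 subunits passed the threshold (limma, Benjamini-Hochberg adjusted p under 0.05 over all genes tested), 0 higher and 0 lower in germfree liver. Over all genes tested, 6.49% passed, 3.75% higher and 2.74% lower. An unadjusted p under 0.05 was reached by 3 of the 35 members (Psmb5, Psma2 and Psmd9) and by 18.7% of all genes. The log2 change, germfree minus conventional, was below 0 in 24 members and above 0 in 11, with a median of -0.04, where the median over all genes was -0.0005. For 34 of 35 members the 95% interval of the change lay within 1.5-fold in both directions, and for 31 within 1.3-fold. Among the members, Psmc1 was the exception to the wider bound. Over all 9084 genes tested, 8506 lay within 1.5-fold and 7041 within 1.3-fold, so narrow intervals are common to most genes here. The groups overlapped in every member, whereas in 5 of the 9084 genes they did not.

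**Figure D1:**
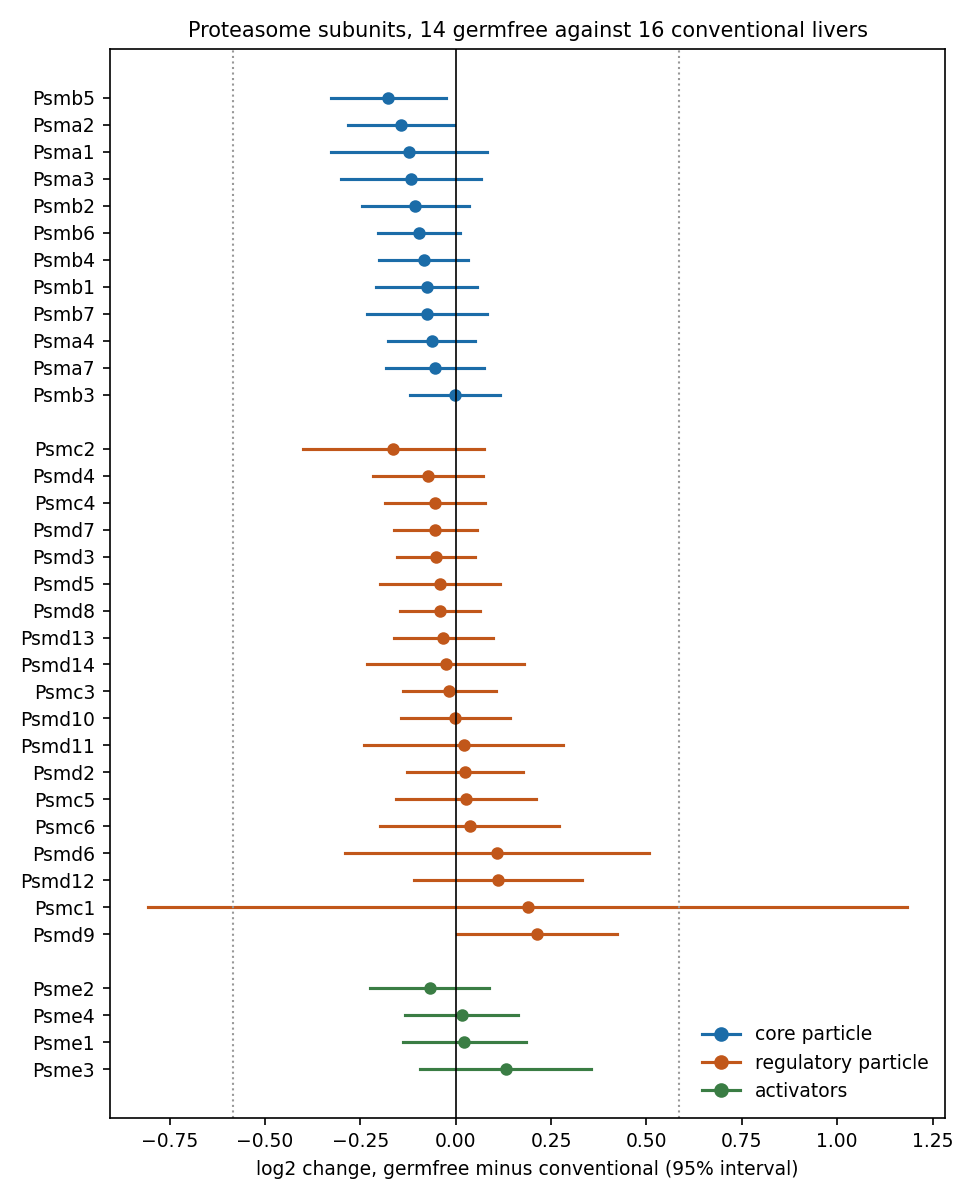
Log2 change between 14 germfree and 16 conventional livers for each of the 35 tested subunits (points) with its 95% interval (lines), ordered by change within the core particle, the regulatory particle and the activators; dotted lines mark 1.5-fold. All 12 core points lie below 0 by at most 0.18, the 19 regulatory points lie on both sides of 0, and the interval of Psmc1 (-0.81 to 1.18) is the only one to cross the dotted lines.

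In the core particle 0 of 12 tested subunits passed the threshold. All 12 had a log2 change below 0, between -0.18 (Psmb5) and -0.002 (Psmb3), with a median of -0.09. That of Psmb3 lay above 0 in 3 of 17 processing alternatives and in some fits that left out 1 liver, by at most 0.02. Of all genes tested, 50.1% were below 0. The 5 alpha subunits had a median of -0.12 and the 7 beta subunits one of -0.08. Since the subunits were measured in the same livers, their shared sign is a count over genes and not a count of replicates. The mean of the 12 log2 signals was between 10.22 and 10.43 in conventional livers (median 10.33, SD 0.06, n = 16) and between 10.11 and 10.33 in germfree livers (median 10.27, SD 0.07, n = 14). The groups overlapped in this mean, with the lower end of the range taken by germfree livers and the upper end by conventional ones. All 14 germfree livers lay below the conventional average of 10.34, and the germfree average was 10.24. This difference was not tested.

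Psmb5 carries the chymotrypsin-like activity, the target of bortezomib. Its log2 signal was 9.07 at the lowest, 9.57 at the median and 9.66 at the highest in conventional livers, and 8.89, 9.26 and 9.54 in germfree livers. The lowest germfree value was below every conventional one and 11 of 14 germfree livers lay below the conventional mean, yet the ranges overlapped over most of their length. The change was -0.18 ± 0.07 (SE; 95% interval -0.33 to -0.02; limma p = 0.0242, adjusted p = 0.178).

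Psmb6, the caspase-like subunit, had log2 signals of 10.83, 11.06 and 11.25 (lowest, median, highest) in conventional livers and of 10.66, 10.96 and 11.17 in germfree livers. Germfree livers were lower at both ends of the range, the ranges overlapped, and 10 of 14 germfree livers were below the conventional mean. Its change was -0.10 ± 0.05 (SE; 95% interval -0.20 to 0.01; limma adjusted p = 0.339).

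Psmb7, the trypsin-like subunit, had log2 signals of 10.14, 10.65 and 10.83 in conventional livers and of 9.96, 10.55 and 10.73 in germfree livers. With 8 of 14 germfree livers below the conventional mean, the livers were mixed between the groups. The change was -0.08 ± 0.08 (SE; 95% interval -0.23 to 0.08; limma adjusted p = 0.680). A further probe for Psmb7 gave a change of -0.25, with an adjusted p of 0.0648 when every probe was tested on its own by limma.

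Among the alpha subunits, Psma2 had the change farthest from 0. Its log2 signal was 10.89, 11.21 and 11.77 (lowest, median, highest) in conventional livers and 10.76, 11.11 and 11.41 in germfree livers. The highest value was that of a single conventional liver, and 12 of 14 germfree livers lay below the conventional mean. The change was -0.14 ± 0.07 (SE; 95% interval -0.28 to -0.01; limma p = 0.0422, adjusted p = 0.242).

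Psmb3, a structural beta subunit, marked the other end of the core particle. Its log2 signals were 10.20, 10.47 and 10.78 in conventional livers and 10.22, 10.49 and 10.68 in germfree livers, so that the germfree range lay inside the conventional one. The change was -0.002 ± 0.06 (SE; limma adjusted p = 0.990), and 5 of 14 germfree livers were below the conventional mean. The remaining core subunits form the gated alpha rings (Psma1 -0.12, Psma3 -0.12, Psma4 -0.06, Psma7 -0.06) and the structural part of the beta rings (Psmb1 -0.08, Psmb2 -0.11, Psmb4 -0.08), given as log2 changes that did not pass the test.

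**Figure D2:**
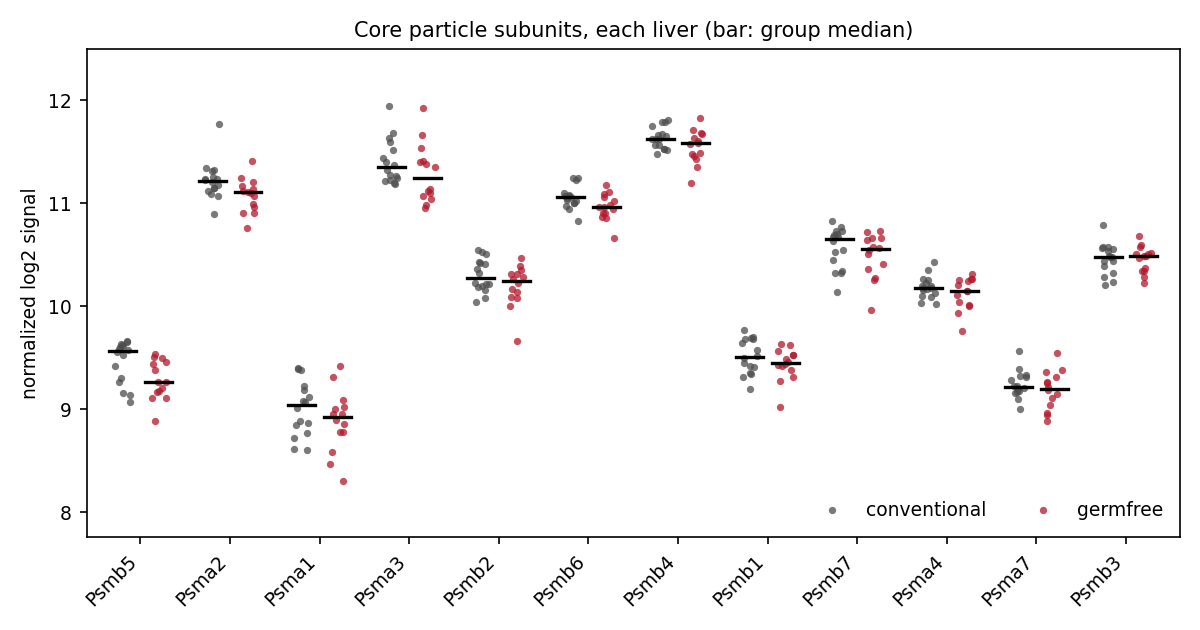
Normalized log2 signal of the 12 core subunits in each of 16 conventional (grey) and 14 germfree (red) livers, with bars at the group medians. For 11 of the 12 subunits the germfree bar lies below the conventional one, with the widest space between the bars in Psmb5 (9.57 against 9.26), and Psmb3 is the exception.

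In the regulatory particle the subunits lay on both sides of 0. Of 19 members, 11 had a log2 change below 0 and 8 above, with a median of -0.02 and a range from -0.16 (Psmc2) to 0.21 (Psmd9). The mean of the 19 log2 signals ran from 7.71 to 8.02 in conventional livers (median 7.87) and from 7.76 to 8.04 in germfree livers (median 7.87). This mean includes Psmc1, whose values fell in separated levels (below) with an SD within groups of 1.47. Its ranges are therefore not those of the other members alone. The difference between the core and the regulatory median was not tested.

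The 6 ATPases of the base had a median change of 0.005, with 3 below 0. Psmc2 had log2 signals of 5.96, 6.43 and 7.14 (lowest, median, highest) in conventional livers and of 5.82, 6.35 and 6.87 in germfree livers. The germfree range was a little lower at both ends, and 9 of 14 germfree livers were below the conventional mean. Its change was -0.16 ± 0.12 (SE; 95% interval -0.40 to 0.07; limma adjusted p = 0.50). Log2 changes of the other ATPases were -0.06 for Psmc4, -0.02 for Psmc3, 0.03 for Psmc5 and 0.04 for Psmc6, apart from Psmc1, which is described below.

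The 13 non-ATPase members had a median change of -0.03, with 8 below 0. Psmd9, an assembly chaperone of the ATPase ring that leaves before the particle is complete, had the highest change of all members. Its log2 signal was 6.01, 6.40 and 6.84 in conventional livers and 6.15, 6.69 and 7.22 in germfree livers. The germfree values reached higher, and 9 of 14 germfree livers lay above the conventional mean. The change was 0.21 ± 0.10 (SE; 95% interval 0.00 to 0.42; limma p = 0.0458, adjusted p = 0.253), while a further Psmd9 probe gave -0.0005.

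Psmd5 (-0.04) and Psmd10 (-0.001), the latter known as gankyrin, are also chaperones of the ATPase ring rather than parts of the finished particle. Psmd14 (-0.03), the enzyme that cuts ubiquitin chains off the substrate, and its partner Psmd7 (-0.05) had small log2 changes of the same sign. Psmd4 (-0.07), a ubiquitin receptor, and Psmd2 (0.03), the scaffold to which shuttle proteins bind, differed in sign. The structural subunits of the lid were Psmd3 (-0.05), Psmd8 (-0.04), Psmd13 (-0.03), Psmd11 (0.02), Psmd6 (0.11) and Psmd12 (0.11). None of these passed the test. Of the 35 members, 29 were detected on all arrays, and the 6 that were not all belong to the regulatory particle. Psmc6 was detected on 5 of 16 conventional and 4 of 14 germfree arrays, Psmd2 on 8 and 7, Psmd11 on 11 and 9, Psmd5 on 13 and 13, Psmd6 on 14 and 11, and Psmc1 on 15 and 11. A signal near the background understates a fold change. The small changes of Psmc6, Psmd2, Psmd11, Psmd5 and Psmd6 therefore say less than those of the core subunits. The change of Psmc1 is limited by the separated levels of its values (below).

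The 4 activators had a median log2 change of 0.02, and 1 was below 0. Psme1 (0.02) and Psme2 form the interferon-inducible cap PA28, whose products feed antigen presentation. Psme2 had log2 signals of 7.14, 7.55 and 7.79 (lowest, median, highest) in conventional livers and of 7.11, 7.48 and 7.80 in germfree livers, nearly the same range. Its change was -0.07 ± 0.08 (SE; limma adjusted p = 0.713). Psme3, the nuclear member of the family, had log2 signals of 7.50, 8.02 and 8.57 in conventional livers and of 7.76, 8.17 and 8.68 in germfree livers. The germfree range was higher at both ends with wide overlap, and the change was 0.13 ± 0.11 (SE; limma adjusted p = 0.594). Psme4 (0.02) encodes a large single-chain activator.

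**Figure D3:**
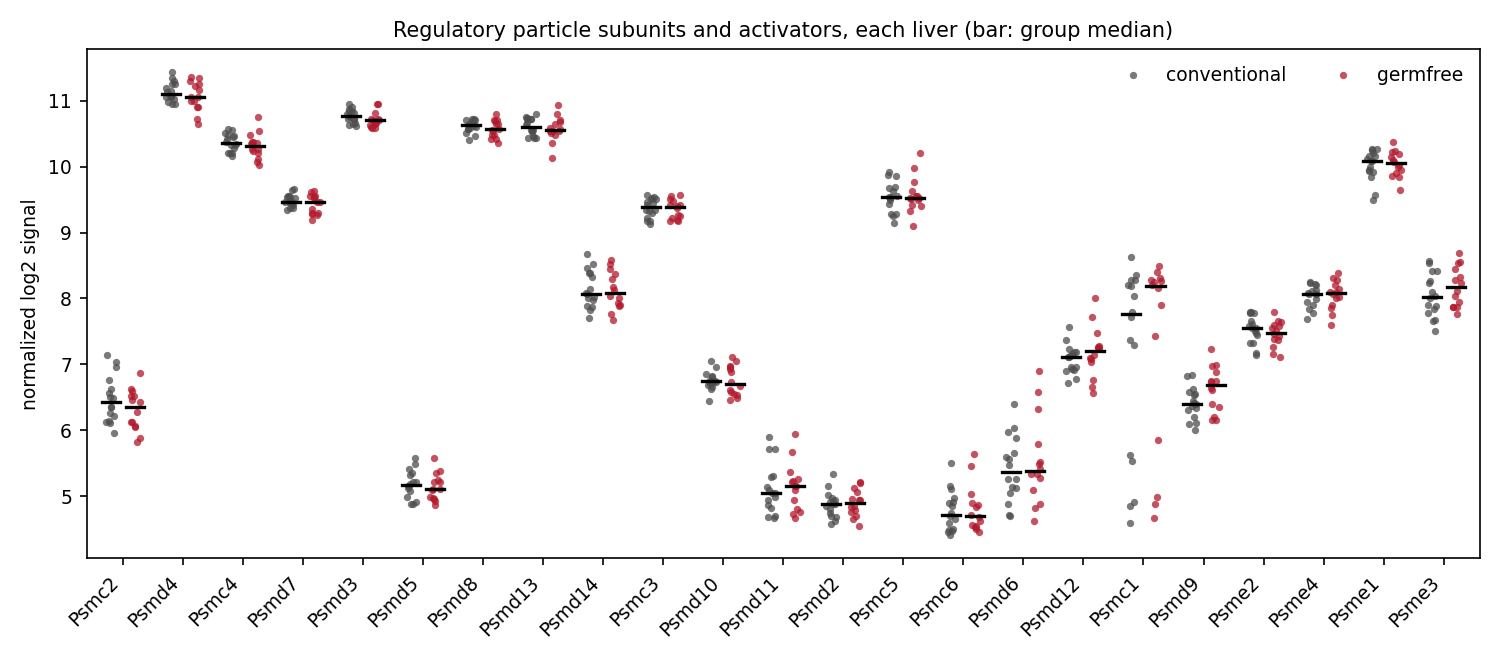
Normalized log2 signal of the 19 regulatory particle members and 4 activators in each of 16 conventional (grey) and 14 germfree (red) livers, with bars at the group medians. Most subunits scatter around 1 level, while Psmc1 leaves an empty space between 5.84 and 7.30 in both groups.

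Psmc1, an ATPase of the base, differed from the other members in its spread between livers rather than between the groups, a feature picked out after its values were seen. Its log2 signal was 4.60, 7.76 and 8.62 (lowest, median, highest) in conventional livers and 4.66, 8.19 and 8.49 in germfree livers. Values fell in separated levels, with no liver between 5.84 and 7.30. Below this gap lay 5 of 16 conventional livers (replicates 2, 3, 4, 6 and 9) and 4 of 14 germfree livers (replicates 1, 2, 4 and 5), and above it 11 and 10. Both groups therefore held livers at both levels. The livers below the gap had replicate numbers up to 9 in the conventional and up to 5 in the germfree group, and none with a higher number was below it. The labels do not say whether these numbers follow an order of processing, and their part in the gap was not tested. The SD within groups was 1.47 on the log2 scale, which ranked 2 of 9084 genes after Fbxw5, and the next member was Psmd6 at 0.58. The gap is also present in the authors' normalized values, between 6.60 and 7.67 after log2. Array mean signals were 85.5 to 321 for the livers below the gap and 133 to 359 for those above it, so bright and dim arrays occurred at both levels. With this spread the change of Psmc1 was 0.19 ± 0.49 (SE; 95% interval -0.81 to 1.18; limma adjusted p = 0.891), and this interval includes a level 2-fold higher in germfree liver. The gene had 1 probe, so no second probe could be set beside it.

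The spread of the other members was in the range of genes in general. The median SD within groups was 0.198 over the 35 members and 0.241 over all genes tested, on the log2 scale. The lowest SD among the members was 0.11 (Psmd3). In 10 members a second probe passed the filter, so that 2 probes for the same gene could be set against each other. The changes had the same sign in 4 of the 10 pairs and opposite signs in 6. Deviations of the 2 probes from their group means correlated between -0.40 (Psmd7) and 0.70 (Psmb7) over 30 livers, with a median of -0.02, and 5 of the 10 were below 0. Psmb7 and Psme1 were the members whose probes correlated above 0.5. Of the second probes, those for Psmb2, Psmc4, Psmd6, Psmd9 and Psmd10 were dim, with mean deposited signals of 64.9 to 87.6 and detection on 13 to 29 arrays. The part of low signal in the low correlations was not tested.

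The proteins are assembled in fixed proportions, but the median correlation between probe signals of core or of regulatory subunits was near 0 within a group. The median pairwise correlation among core subunits was -0.01 in 16 conventional and 0.05 in 14 germfree livers (66 pairs). Among regulatory members it was -0.02 and 0.03 (171 pairs), and over all genes tested 0.001 and 0.002. The 4 activators had medians of 0.34 and 0.37 (6 pairs). Within the core, Psmb1, Psmb3, Psmb4, Psmb5, Psmb6 and Psmb7 all correlated positively with each other, as deviations from the group means over 30 livers. Their pairs ran from 0.21 (Psmb3 with Psmb7) to 0.63 (Psmb4 with Psmb6), a set picked out after the values were seen. Psmb2 reached at most 0.03 with any of them. Values on 1 array share its depth and normalization, so these correlations are descriptions. Since 2 probes for the same gene also correlated at a median of only -0.02 (10 pairs), they cannot show that the transcripts vary independently. Pairs of members ranged from Psma3 with Psmd6 at 0.79 and Psme1 with Psmb7 at 0.72 down to Psmb4 with Psmd12 at -0.64, over 30 livers as deviations from the group means (pairs with Psmc1 are not given, since its values lie in separated levels).

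**Figure D4:**
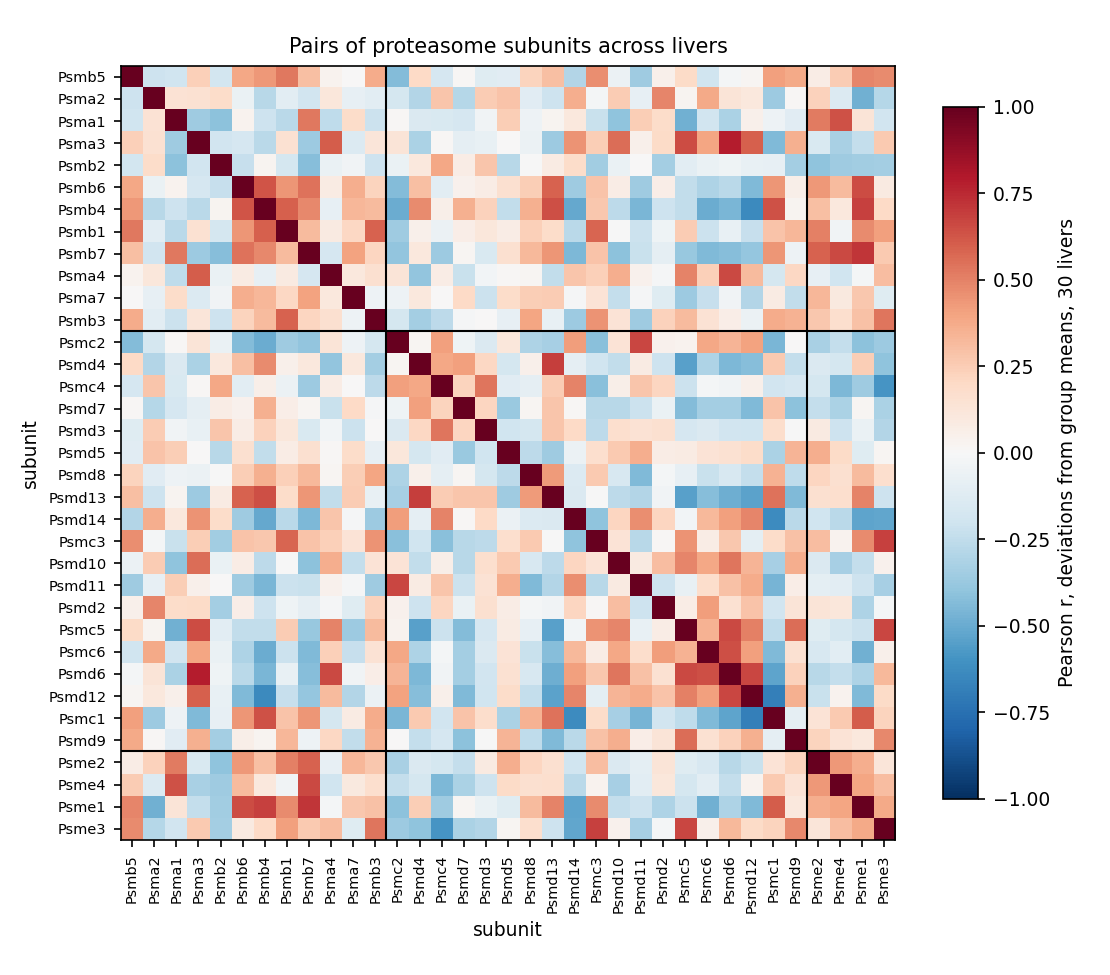
Pearson correlation of the deviations from the group means over 30 livers for each pair of the 35 members, ordered as in the plot of changes, with black lines between the core particle, the regulatory particle and the activators. The core block as a whole holds positive and negative pairs, with only positive ones among Psmb1 and Psmb3 to Psmb7. The pair Psma3 and Psmd6 (0.79) stands out off the diagonal.

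The members took both signs along the main direction in which the livers of a group differed. The first axis of the deviations from the group means over all genes held 15.1% of the variance. Psmb4 (r = 0.75), Psmc1, Psme1 (0.72) and Psmb7 (0.71) were among 7 members with a correlation above 0.5 with this axis (the value of Psmc1 is not given, since its signals lie in separated levels), and Psmd14 (-0.69), Psmc2 (-0.64), Psmd12 (-0.62) and Psmd6 (-0.60) were among 6 below -0.5. Correlations of the members with the log2 mean signal of the array ran from -0.50 to 0.55, with a median of 0.13, and that of the axis itself was 0.35. The share of all genes beyond 0.5 or -0.5 on this axis was not counted, so these counts do not set the members apart from other genes. The part of array quality in these correlations was not tested.

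Genes outside the proteasome that followed the mean of the 35 members most closely over the 30 livers, as deviations from the group means, were Mtmr9 (r = 0.79), Mmab (0.73), Fzr1 (0.73), Cox20 (0.70) and Cmas (0.70). Fzr1 encodes an activator of the anaphase-promoting complex, a ubiquitin ligase. Without Psmc1 in the mean the 5 closest were Cmas (0.76), Ptcd3 (0.71), Pin4 (0.70), Cbwd1 (0.70) and Cetn2 (0.70), and 1 gene was shared between these sets of 5.

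The wider ubiquitin-proteasome system was read through 63 genes in 6 lists, of which 52 had a named probe and 41 were tested. None was higher in germfree liver, 2 fell and 39 did not pass the test (limma, adjusted p under 0.05), where 2.74% of all genes tested were lower. Both that fell belong to the 7 tested genes of transcriptional control, the list built around Nrf1. They encode the 2 partners of a ubiquitin ligase of the endoplasmic reticulum that draws out misfolded proteins and also keeps Nrf1 low. The lists were chosen with earlier results of these data known, so the place of both in the same list is not evidence of a pattern.

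Syvn1, the ligase, had log2 signals of 10.46, 11.24 and 12.90 (lowest, median, highest) in conventional livers and of 10.08, 10.71 and 11.42 in germfree livers. The high values were those of conventional livers, and 13 of 14 germfree livers lay below the conventional mean. Its change was -0.63 ± 0.19 (SE; limma adjusted p = 0.0449). Sel1l, its adaptor, had log2 signals of 8.68, 9.07 and 9.41 in conventional livers and of 8.69, 8.81 and 8.98 in germfree livers. All 14 germfree livers lay below the conventional mean, within the lower part of the conventional range. The change was -0.21 ± 0.06 (SE; limma adjusted p = 0.0447). Both lie close to the threshold: leaving out 1 liver ended the call of Syvn1 in 17 of 30 fits and that of Sel1l in 21 of 30, and of 17 processing alternatives 9 and 7 did so.

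Nfe2l1 itself had a log2 change of -0.10 (adjusted p = 0.493) and Btrc, which marks Nrf1 for degradation, one of 0.07. Of 9 tested assembly and associated factors 0 passed and 8 were below 0, with the lowest adjusted p in Psmg3 (-0.14, adjusted p = 0.559), a chaperone of the alpha ring, and Uchl5 (-0.11, adjusted p = 0.692), a deubiquitinase on the regulatory particle. Among 7 tested ubiquitin and activation genes 0 passed, led by Stub1 (0.14, adjusted p = 0.475), a ligase that works with chaperones, and Ube2l3 (-0.08, adjusted p = 0.537), a conjugating enzyme. The 8 shuttle and extraction genes, 0 of which passed, were led by Nploc4 (0.12, adjusted p = 0.352), a cofactor of the segregase p97, and Ubqln1 (-0.09, adjusted p = 0.485), a shuttle protein.

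The 3 immunoproteasome subunits replace the catalytic subunits of the core under interferon. Psmb8, which takes the place of Psmb5, had log2 signals of 5.57, 5.97 and 6.75 (lowest, median, highest) in conventional livers and of 5.32, 5.68 and 6.21 in germfree livers. With 13 of 14 germfree livers below the conventional mean its change was -0.29 ± 0.10 (SE; limma adjusted p = 0.0779), which did not pass. Psmb9, which takes the place of Psmb6, had a change of -0.31 ± 0.13 (SE; adjusted p = 0.180), and Psmb10, which takes the place of Psmb7, one of 0.02 (adjusted p = 0.933). Of 7 tested genes of MHC class I loading 0 passed, led by Erap1 (0.18, adjusted p = 0.379), a peptide trimmer, and B2m (-0.11, adjusted p = 0.410), the light chain of class I. Over the 30 livers, as deviations from the group means, Psme1 correlated with Psmb8 at -0.04, with Psmb9 at 0.03 and with Psmb10 at 0.59. The correlations of Psme2 were 0.51 with Psmb8, 0.07 with Psmb9 and 0.33 with Psmb10, so no immunoproteasome subunit was above 0.5 with both.

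Some markers of other liver cells differed between the groups. Of 7 tested Kupffer cell and macrophage markers 3 were lower in germfree liver (Clec4f, C1qa and C1qc). The summed linear signal of all 7 was 710.5 to 1433 in conventional and 577 to 1060 in germfree livers. Of 3 tested markers of T, NK and innate lymphoid cells 1 was lower (Cd247). Of 5 of sinusoidal endothelium 1 was higher (Stab2, 0.47). The others did not pass, with Lyve1 (-0.49) and Pecam1 (-0.18) below 0 and Stab1 (0.15) and Clec4g (0.10) above. The pancreatic acinar marker Cela2a was higher by 1.5 on the log2 scale (limma adjusted p = 1.2e-06), as was Reln of stellate cells by 0.35. Changes below 0 passed the test in Sox9 of the bile duct (-0.83), Plin4 of adipocytes (-0.69) and Alas2 of erythroid cells (-0.49). Each of these was 1 of 2 or 3 tested markers of its cell type, and the others did not pass. Amy2a5 (acinar, -0.10), Lrat (stellate, -0.08) and Krt7 (bile duct, 0.07) had the opposite sign. Cela1 (acinar, 0.23), Dcn (stellate, 0.22), Adipoq (adipocyte, -0.21) and Hba-a1 (erythroid, -0.32) had the same sign. Of 4 hepatocyte markers, 3 of neutrophils and monocytes and 1 of B cells, 0 passed. The part of cell composition in the changes of the subunits was not tested.

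**Figure D5:**
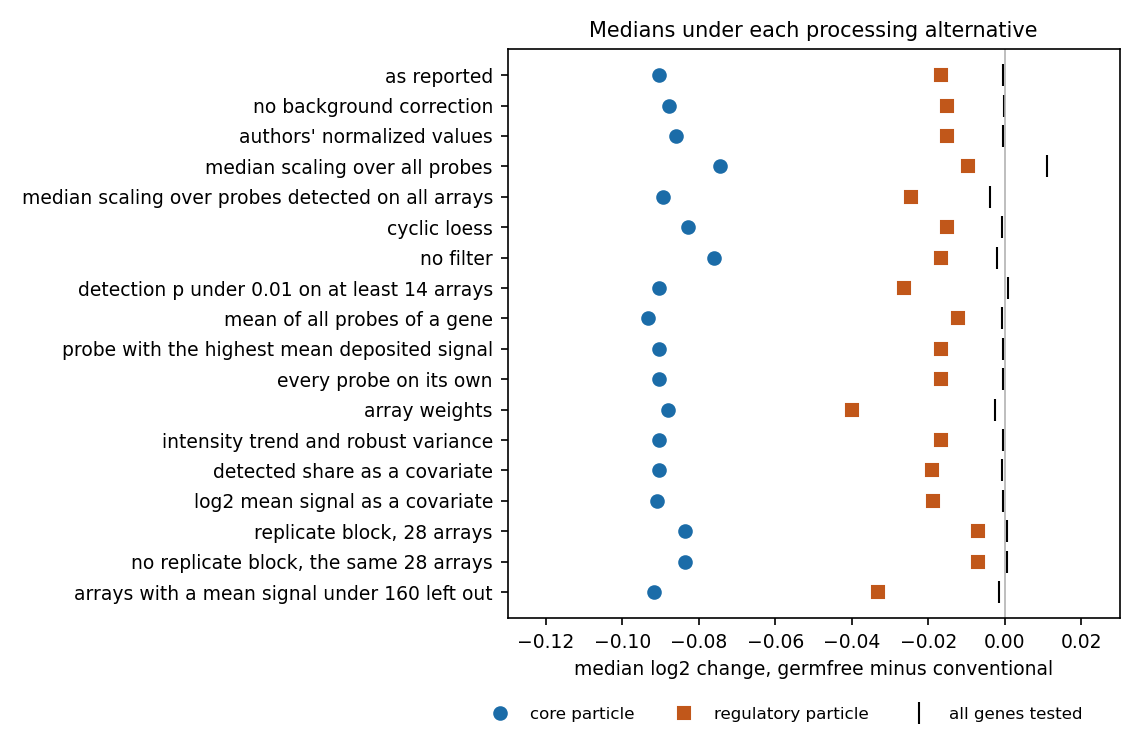
Median log2 change, germfree minus conventional, over the core particle (circles), the regulatory particle (squares) and all genes tested (ticks) under each way of processing. The core median stays between -0.09 and -0.07 and the regulatory median between -0.04 and -0.007, while the median of all genes moves by at most 0.01.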

How the data were processed

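Per the file headers, the table the authors deposited gives the average bead intensity of a probe without normalization, together with its detection p-value. The submitters' processing notes name GenomeStudio, with no version. A second deposited table holds linear intensity that the authors had quantile normalized, and it served as an alternative. Another 33 arrays in the signal table have no sample in the labels and were not used. Signals of the 30 arrays were processed with neqc in limma 3.58.1 (R 4.3.3), that is normexp by detection p, an offset of 16, quantile normalization and log2. Of 24613 probes, 10525 passed the detection limit given above. Symbols came from the platform annotation (20985 probes, 20984 of them with 1 symbol) and were updated through RefSeq. Each gene was read through the probe with the highest mean normalized signal.

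The test was limma's moderated test, two-sided, with microbial status as the only term and adjustment by Benjamini and Hochberg over 9084 genes. It was also run on simulated data in which each gene varied independently with normal errors. That run does not cover separated levels such as those of Psmc1. The members and lists were chosen with earlier results of these data known. Every member is named. Full values are given for members past the threshold, the 3 catalytic subunits and the members with the highest and lowest change in each part, to which Psma2 and Psmc1 were added after their values were seen. Named from the wider lists are the genes past the threshold and up to 2 more per list by smallest adjusted p. The 5 genes that follow the member mean were taken by Pearson correlation of deviations from group means. Motifs were counted in RefSeq promoter windows. The labels give no cages, chips or batches. Motifs were searched in Python 3.11.15 and figures drawn with matplotlib 3.10.9.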

Additional observations from a re-analysis of the deposited data

How the results depend on the processing

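No member passed the threshold under any of 17 processing alternatives or in 30 fits that each left out 1 array (limma). All 12 core changes were below 0 in every alternative except those that follow. The number was 11 of 12 in the 28 arrays with shared replicate numbers, and without the 3 arrays under a mean signal of 160. It was 13 of 15 without a filter, and 11 or 12 of 12 with 1 array left out. The core median was -0.10 to -0.07 and the regulatory median -0.03 to 0.005 with 1 array left out. Of the regulatory changes, 11 of 19 were below 0 as reported, and 15 of 19 with array weights (median -0.04). The number was 10 of 15 at detection p under 0.01 on at least 14 arrays, and 10 to 12 of 19 in the other alternatives. The count of wider genes past the threshold, 2 as reported, was 1 without background correction, with every probe on its own, with an intensity trend and robust variance, and in the 28 arrays with or without a block. It was 0 under both median scalings, cyclic loess, no filter, without the 3 dim arrays and at an adjusted p under 0.01, and 0 to 2 with 1 array left out. Calls over all genes, 590 as reported, were 69 under median scaling over all probes. The causes were not tested. Replicate numbers are shared by 14 pairs of different animals. The deviations of a pair correlated between -0.18 and 0.37, with a median of 0.09 and 7 of 14 over 0.1. Whether a shared number stands for a shared step of processing is not in the labels and was not tested. With the replicate number as a block, 0 members passed, the core median was -0.08, the regulatory median was -0.007, Psmb8 had an adjusted p of 0.0332 and 497 genes passed, against 476 in the same 28 arrays without it. Signals near background limit the regulatory subunits that were not detected on all arrays, and separated levels limit Psmc1.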
